A study of Mus musculus with 4 samples.

Results

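The prostate of TRAMP mice given olive oil was compared with the prostate of C57BL/6 mice given olive oil. The comparison was defined by the sample titles and holds 2 of the 4 arrays of the series, 1 for each mouse line. Both groups were male mice, 8 weeks of age, kept on AIN-76A diet, fasted overnight, dosed with the oil by mouth and killed 12 hours later. Each group had 3 mice, and whether the RNA on an array came from 1 mouse or from a pool was not given in the sources used here. The control group is labelled C57BL/6 alone, and the TRAMP group by that name alone, without its background strain, so a difference between lines and a difference due to the transgene cannot be told apart. The other 2 arrays held the same lines after 600 mg/kg of gamma-TmT, a mixed tocopherol preparation written TmT below. They are used here to show whether a difference recurred in a second pair of arrays that shares no array with the first. Their signals also entered the choice of the brightest probe of each gene.

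TRAMP is a model in which the SV40 early genes are driven in prostate epithelium by the rat probasin promoter. Their large T antigen binds p53 and the retinoblastoma proteins and so frees E2F factors, which switch on genes of DNA replication and repair. The prostate itself is a secretory gland whose epithelium folds and exports large amounts of protein, set in smooth muscle, fibroblasts, vessels, autonomic nerves and fat.

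Expression was measured on Agilent arrays of 1 colour. Levels are log2 signals relative to the 75th percentile of their own array, so that 0 is the signal at that percentile. Of 28015 genes, 18956 were well above background on both oil arrays and are called measured. The C57BL/6 oil array had 74.1% of its spots well above background and the TRAMP oil array 70.4%, and on both no spot was saturated. Marked as outliers were 131 spots on the C57BL/6 oil array and 348 on the TRAMP oil array. The fit of the trend across the array, which the scanner software corrects, was 0.106 and 0.23 in the same order (root mean square). A difference is TRAMP minus C57BL/6 on the log2 scale, and ± gives the scanner software's spot error, with a median of 0.21 over the measured genes. That error covers the spot and not the mice, so with n = 1 array a side no difference has a replicate check and no test was possible. The median spread of repeat spots, over 143 probes printed 10 times, was 0.113 on the C57BL/6 oil array and 0.177 on the TRAMP oil array.

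The tissue label was checked against marker genes. All 9 prostate epithelial markers, among them the androgen-regulated secretory protein Pbsn, the homeobox factor Hoxb13 and the luminal keratins Krt8 and Krt18, were well above background on both oil arrays. Pbsn stood at 7.06 in C57BL/6 and 4.11 in TRAMP, while Krt18 stood at 6.30 and 6.22. Markers of neighbouring tissue were present on both arrays too. The 7 seminal vesicle markers summed to 1949 and 1929 times the 75th percentile in C57BL/6 and TRAMP, and the 4 skeletal muscle markers summed to 225 and 111 times. Of 5 markers of the vas deferens and epididymis on the array, the epididymal genes Lcn5, Lcn8 and Adam7 were above background on neither oil array.

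Among the measured genes, 1465 were at least 2-fold higher in TRAMP, which is 7.73%, and 1490 were at least 2-fold lower, which is 7.86%. The median difference over all measured genes was -0.07, with quartiles of -0.48 and 0.37, so most genes lay close to each other on both arrays. In the counts that follow, higher and lower mean past 2-fold in TRAMP. The counts depend on the background treatment, since with normexp correction of the raw signals they were 446 higher and 674 lower. Normexp also moved 24 of the 48 described class medians, relative to all genes, by more than 0.2. At least 4-fold differences were found for 280 genes that were higher and 199 that were lower. A further 278 genes higher and 495 lower were above background on 1 array only and give bounds. Cell cycle genes and prostate secretory genes, both known from earlier work on these arrays, served as a yardstick. In the cell cycle list 102 of the 122 members measured were higher (median 2.06), and in the secretory list 13 of 30 were lower (median -0.87). Some classes below share members with these lists.

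**Figure D1:**
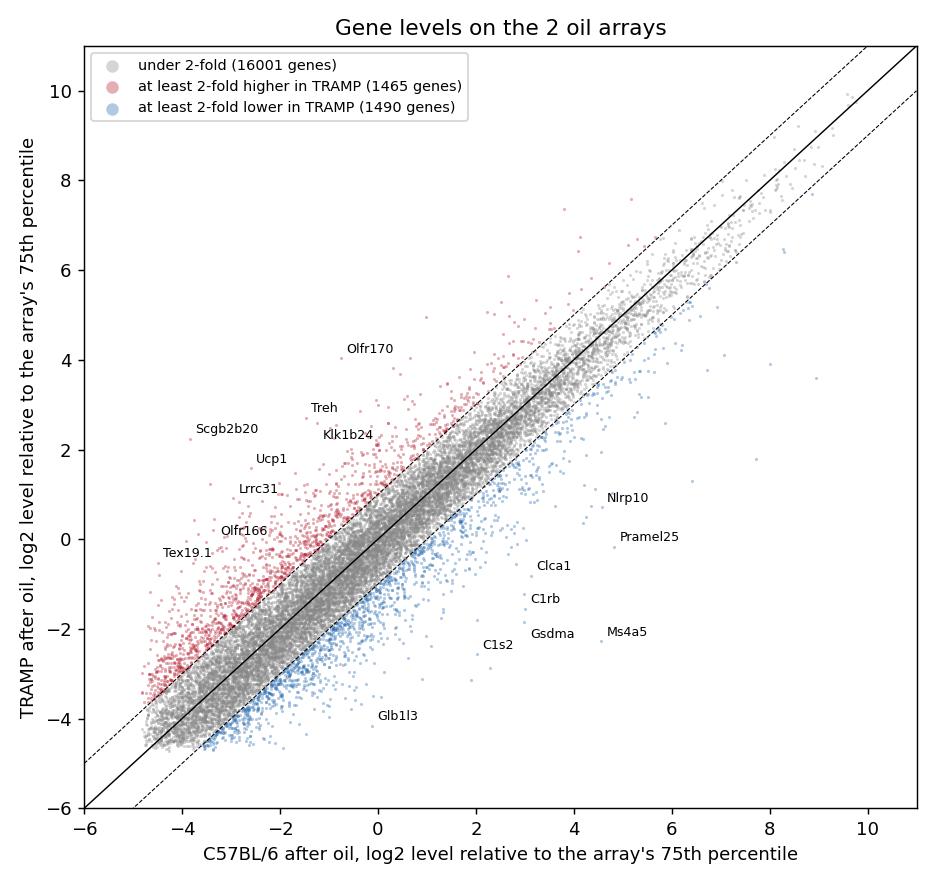
Levels of the 18956 genes measured on both oil arrays, with the C57BL/6 array on the x axis and the TRAMP array on the y axis, both in log2 units relative to the array's 75th percentile. The solid line marks equal levels and the dashed lines 2-fold differences; most points lie between the dashed lines, and Scgb2b20 and Ms4a5 stand farthest from them.

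Genes that repair DNA by homologous recombination and in the Fanconi pathway were higher in TRAMP. Of 32 measured members, 17 were higher and 0 lower, and the median difference was 1.02. Only 1 of these members also belongs to the cell cycle list, and the 31 others kept a median of 1.00. Fanci, a Fanconi protein that is monoubiquitinated at damaged DNA, stood at -3.44 in C57BL/6 and -0.59 in TRAMP, a difference of 2.85 ± 0.25. The resection nuclease Exo1 stood at -1.99 and 0.56, a difference of 2.55 ± 0.21. Under the other processing settings, described at the end, the smallest difference was 0.98 for Fanci and 1.68 for Exo1. Ube2t, the ubiquitin-conjugating enzyme of the Fanconi pathway, differed by 2.19 ± 0.20, and Brca1, which directs breaks into recombination, by 1.62 ± 0.21. In the pair after TmT, Brca1 stood at -3.75 and -0.89, so it was again higher in TRAMP. For Brca2, a mediator of recombination, the C57BL/6 oil array was not above background and the difference is at least 33.7-fold. That bound did not recur, since Brca2 stood at -2.40 and -2.39 in the pair after TmT. After TmT the class had 8 of 32 members higher and a median of 0.45. Relative to all genes the oil median was 1.09, and 0.58 with normexp.

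Other nuclear classes shifted less. Mismatch and excision repair had a median of 0.44 over 27 measured genes with 3 higher, led by the uracil glycosylase Ung at 0.81 in C57BL/6 and 2.57 in TRAMP, a difference of 1.76 ± 0.20. The mismatch endonuclease Pms2 differed by 1.38 ± 0.22 and the excision nuclease Ercc4 by 1.07 ± 0.21. Among 21 genes of the Rb and E2F family, 7 were higher and 2 lower, and the median was 0.49, or 0.39 over the 19 outside the cell cycle list. E2f1, an activating E2F, stood at -0.62 and 0.84, a difference of 1.46 ± 0.20, and the Rb relative Rbl1 differed by 1.37 ± 0.21. The repressors E2f7 and E2f8 were above background on the TRAMP oil array but not on the C57BL/6 oil array. Rb1 itself, the target of T antigen, differed by 0.39 ± 0.07. Subunits of the same complex went apart here, as Lin9 of the MuvB core differed by 1.66 ± 0.21 and its partner Lin52 by -1.38 ± 0.18. Histone genes of the clusters had a median of 0.52, with 9 of 29 higher and 2 lower; the linker histone H1f3 was among the lower at -1.55 ± 0.21 and H2ac4 was the highest at 2.39 ± 0.24. Probes for these near-identical histone genes may not separate single copies.

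Of the chromatin classes under the limits set for a description, polycomb and histone methylation genes had a median of 0.37 over 39 members with 5 higher. Ezh2, the catalytic subunit of polycomb complex 2, stood at -2.75 in C57BL/6 and -1.03 in TRAMP, a difference of 1.71 ± 0.22, and the polycomb reader Cbx2 differed by 1.93 ± 0.21. The Ezh2 paralogue Ezh1 differed by 1.78 ± 0.21 after oil and by -1.58 after TmT, so its direction turned between the pairs. Kinesins showed how far such a family splits: 10 of 31 were higher, led by the mitotic Kif14 at 3.47 ± 0.33, but among the 23 kinesins outside the cell cycle list only 2 were higher and the median was -0.20. End joining genes, by contrast, had a median of 0.02 over 18 members, with H2ax at 1.02 and Chek2 at -1.75.

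**Figure D2:**
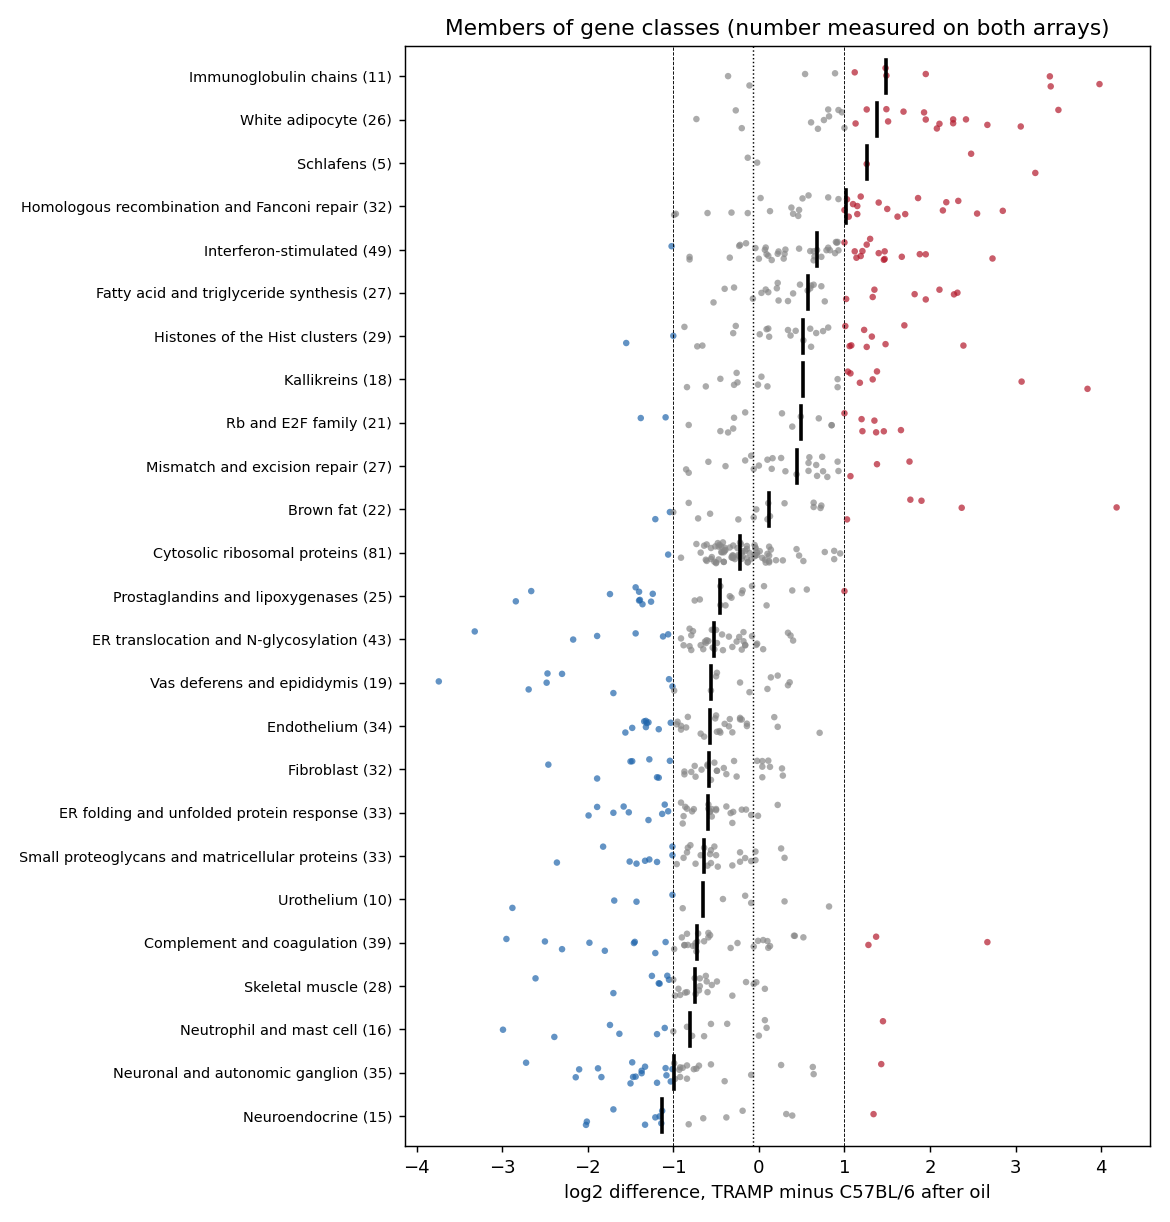
Log2 difference, TRAMP minus C57BL/6 after oil, of each measured member of 25 gene classes, 1 point a gene, with red for 2-fold or more higher, blue for 2-fold or more lower and grey for the rest. Black bars are class medians, the dotted line is the median of all genes at -0.07, and the class medians run from 1.48 for immunoglobulin chains to -1.13 for neuroendocrine genes.

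Genes of white fat cells were higher in TRAMP after oil, and so were the enzymes that make fatty acids and triglyceride. Of 26 measured adipocyte genes, 15 were higher and 0 lower (median 1.38). Cidec, which enlarges lipid droplets, stood at 0.31 in C57BL/6 and 3.81 in TRAMP, a difference of 3.50 ± 0.20. Adipoq, the hormone adiponectin, stood at 0.02 and 2.29, a difference of 2.27 ± 0.20, and the droplet coat protein Plin1 at -1.18 and 1.08, also 2.27 ± 0.21. Fabp4, the fatty acid carrier of adipocytes, stood at 5.17 and 7.59. In the pair after TmT none of these stood out: Cidec stood at 1.01 and 0.44, Adipoq at -0.59 and -1.20 and Fabp4 at 4.02 and 4.00. The TRAMP oil array therefore held the highest value of each of these genes among the 4 arrays. The 5 white fat markers summed to 6.70 times the 75th percentile on the C57BL/6 oil array and 40.5 times on the TRAMP oil array, against 5.39 and 11.8 times after TmT. Leptin (Lep) was above background on neither oil array.

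Fatty acid and triglyceride synthesis had 8 of 27 genes higher, 0 lower and a median of 0.57. Scd1, the desaturase that makes monounsaturated fat, stood at 4.09 in C57BL/6 and 6.42 in TRAMP, a difference of 2.32 ± 0.20. The fatty acid synthase Fasn stood at 0.74 and 3.02, a difference of 2.28 ± 0.20. Dgat2, which adds the last acyl chain of triglyceride, differed by 2.11 ± 0.20, and the lipogenic regulator Thrsp by 1.95 ± 0.20. These members parted after TmT, where Fasn differed by 1.41, Scd1 by -0.49, Dgat2 by 0.21 and Thrsp by -0.06. Among lipases, the adipocyte enzymes Lipe at 1.69 ± 0.21, Lpl at 1.49 ± 0.20 and Pnpla2 at 1.26 ± 0.20 were higher, while Pnliprp1, a pancreatic lipase relative, was lower at -3.23 ± 0.27 and was also lower after TmT at -2.96. Under the other processing settings Lipe fell as low as 0.28, while Lpl and Pnpla2 stayed past 2-fold, at no less than 1.37 and 1.19. The lipase family as a whole had a median of -0.17, with 4 of 14 higher and 2 lower, and fatty acid-binding proteins had 2 of 7 higher and 2 lower. The part of the white fat markers, higher on the TRAMP oil array, in the lipid synthesis genes was not tested. In RNA from whole tissue, a change in the number of cells of a type and a change in RNA per cell cannot be told apart.

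Brown fat genes split. Ucp1, the uncoupling protein, stood at -2.60 in C57BL/6 and 1.58 in TRAMP, a difference of 4.18 ± 0.21. Cidea, a lipid droplet protein of brown fat, stood at -0.73 and 1.64, a difference of 2.37 ± 0.20. Elovl3, a fatty acid elongase, was not above background on the C57BL/6 oil array and was at least 25.1-fold higher in TRAMP, and on neither TmT array was it above background. The muscle-type respiratory subunit Cox7a1 went the other way, at 5.01 and 4.01, and so did the creatine kinase Ckmt2, shared with muscle, at -1.21 ± 0.20. Over 22 measured genes the median was 0.12, with 5 higher and 2 lower. The 4 brown fat markers summed to 33.0 times the 75th percentile in C57BL/6 and 23.1 times in TRAMP, a sum carried by Cox7a1, so the sum and Ucp1 went apart.

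Antibody genes, Schlafen genes and a list of interferon-stimulated genes had higher medians in TRAMP in both pairs of arrays. Of 11 measured immunoglobulin chains, 7 were higher after oil and 9 after TmT, with medians of 1.48 and 1.31. Relative to all genes the oil median was 1.55, and 0.44 with normexp. The heavy chain gene Igh-2 stood at 0.65 in C57BL/6 and 4.05 in TRAMP after oil, and at 0.93 and 5.61 after TmT. The light chain gene Igl-V1 stood at -2.66 and 0.74 after oil, a difference of 3.41 ± 0.22. Antibody probes of related segments may share signal, so their number is not a number of separate genes. The B cell and plasma cell list did not share this height after oil: of 21 measured genes 3 were higher and 3 lower, 14 lay below 0, and the median was -0.27. Its highest member was Jchain, the joining chain made by plasma cells, at 2.21 ± 0.21, while the B cell receptor gene Cd79a differed by -0.40. After TmT 6 of 20 in that list were higher and 0 lower, with a median of 0.67. The 6 leukocyte markers summed to 5.66 times the 75th percentile in C57BL/6 and 3.91 times in TRAMP.

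Schlafens, a family of growth-regulatory proteins induced by interferon, had 3 of 5 measured members higher and a median of 1.26, which relative to all genes was 1.33, and 0.40 with normexp. Slfn9 stood at -0.37 and 2.86 after oil, a difference of 3.23 ± 0.20, and at -0.59 and 1.88 after TmT. Slfn10 differed by 2.48 ± 0.20 and Slfn1 by 1.26 ± 0.28, while Slfn2 and Slfn5 differed by -0.13 and -0.02. The measured members thus fell into a higher and a level set.

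Of 49 measured interferon-stimulated genes, 15 were higher and 1 lower (median 0.68), and after TmT 20 of 46 were higher with a median of 0.88. Cxcl10, a chemokine for activated T cells, stood at -3.39 in C57BL/6 and -0.65 in TRAMP, a difference of 2.73 ± 0.24. Oasl2, of the antiviral oligoadenylate synthetase family, stood at -0.27 and 1.68, a difference of 1.95 ± 0.20. Rsad2 (viperin) stood at 0.58 and 2.46, a difference of 1.88 ± 0.20, but at 1.45 and 1.08 after TmT. The chemokine Cxcl9 differed by 1.67 ± 0.25 after oil and 1.64 after TmT. So Rsad2 alone of these 4 lost its direction in the second pair. Guanylate-binding proteins and immunity-related GTPases, families that interferon also induces, had 0 of 15 measured members higher and 1 lower after oil (median 0.06), and 5 of 14 higher after TmT (median 0.69). Peptide loading genes had a median of 0.38 over 13 members, among them the immunoproteasome subunits Psmb8 at 1.43 ± 0.20 and Psmb9 at 1.26 ± 0.20.

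The promoters of some of these interferon-stimulated genes are shown for a sequence that part of the list holds. The genes were listed because interferon induces them, so the share with this sequence describes the list and not these arrays. The interferon-stimulated response element was searched as GAAA, 2 bases of any kind and GAAA, on both strands in the 250 bases before each RefSeq start (build GRCm38). It was found in 18 of the 34 measured interferon-stimulated genes that the promoter table holds, which is 52.9%, against 3.27% of the 11438 measured genes in the table and 3.46% of all its 27025 genes. The windows below hold 100 bases each, 5′ to 3′ on the gene's strand, for the 3 members with a match and the largest difference. Capitals mark the fixed letters of a match on either strand, and matches can overlap. Cxcl10 is at chr5:92349040-92349139 on the minus strand, Rsad2 at chr12:26456518-26456617 on the minus strand and Oas1a at chr5:120907526-120907625 on the minus strand.
Cxcl10: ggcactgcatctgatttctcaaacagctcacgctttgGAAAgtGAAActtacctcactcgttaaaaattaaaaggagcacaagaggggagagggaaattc
Rsad2: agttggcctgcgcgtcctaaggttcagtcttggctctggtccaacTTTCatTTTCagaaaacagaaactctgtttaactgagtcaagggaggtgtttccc
Oas1a: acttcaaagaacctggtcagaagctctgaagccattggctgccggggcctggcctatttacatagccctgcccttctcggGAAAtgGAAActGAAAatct
Oas1a, an oligoadenylate synthetase, differed by 1.40. A match is a description of the letters in the window and not evidence that a factor was bound in these prostates. The E2F letters TTTCCCGC or TTTGGCGC were found in 1 of the 23 recombination and Fanconi genes in the table, Fancg, which is 4.35%, against 2.44% of measured genes and 12.4% of the cell cycle list. A PPAR direct repeat, AGGTCA and AGGTCA with 1 base between, was found in 0 of 17 adipocyte promoters and 0 of 22 lipid synthesis promoters, and in 0.0525% of measured genes.

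The machinery that folds and exports secretory protein was lower in TRAMP. Of 33 measured genes of endoplasmic reticulum (ER) folding and the unfolded protein response, 9 were lower and 0 higher (median -0.59), and after TmT 7 of 33 were lower with a median of -0.54. The disulfide isomerase Pdia4 stood at 3.49 in C57BL/6 and 1.50 in TRAMP, a difference of -1.99 ± 0.20. The ER chaperone Hyou1 stood at 4.56 and 2.67, a difference of -1.89 ± 0.20, but at 4.31 and 4.62 after TmT. Pdia5, a further isomerase, differed by -1.70 ± 0.22, and Creb3l2, a membrane-bound factor that enlarges the secretory pathway, by -1.58 ± 0.21. Hsp90b1, the ER form of Hsp90, stood at 7.21 and 6.66, a difference of -0.55 ± 0.20 that is under 2-fold. Creb3l2 differed by 0.54 under another background correction, described at the end.

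Translocation into the ER and N-glycosylation came close to the same limit: the median was -0.53, with 6 of 43 genes lower, 0 higher and 39 of 43 below 0. Sec11c, the catalytic subunit of signal peptidase, stood at 4.43 and 1.11, a difference of -3.32 ± 0.20, and its partner Spcs2 at 6.21 and 4.32, a difference of -1.89 ± 0.20. Srp72 of the signal recognition particle differed by -2.17 ± 0.20. These 3 were also lower after TmT, by -1.58 for Sec11c, -0.72 for Spcs2 and -0.84 for Srp72. In the next steps of the route, 36 of 39 genes of COPII vesicles and Golgi traffic lay below 0 with a median of -0.48, led by the retrieval receptor Kdelr3 at -1.90 ± 0.26. Aminoacyl-tRNA synthetases had 0 of 20 genes past 2-fold, yet 19 of 20 lay below 0 with a median of -0.43, and after TmT the median was -0.56. Cytosolic ribosomal proteins stayed nearer to all genes, at a median of -0.22 over 81 members with 1 lower. Lying below 0 was not particular to this route. Below 0 also lay 29 of 35 complex I subunits (median -0.31) and 30 of 35 other mitochondrial respiratory subunits (median -0.37). So did 18 of 21 genes of the V-ATPase proton pump (median -0.52). Secretory genes of the epithelium were lower in the same pairs of arrays, with medians of -0.87 after oil and -0.99 after TmT; the link was not tested.

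The ER stress response element is shown in the same way. The list was drawn up to hold unfolded protein response genes, so here too the share describes the list and not these arrays. Searched as CCAAT, 9 bases of any kind and CCACG, on both strands of the same windows, it was found in 6 of the 28 measured ER folding genes in the table, which is 21.4%, against 0.149% of measured genes and 0.13% of all genes. It was found in 1 of 32 translocation and glycosylation genes and 0 of 34 COPII and Golgi genes. The members with a match and the largest difference were the co-chaperone Dnajc3 at -1.13, Derl3 of the export channel for misfolded protein at -1.10 and its ubiquitin ligase Syvn1 at -0.59. Dnajc3 is at chr14:118937786-118937885, Derl3 at chr10:75893201-75893300 and Syvn1 at chr19:6046476-6046575, all on the plus strand of GRCm38.
Dnajc3: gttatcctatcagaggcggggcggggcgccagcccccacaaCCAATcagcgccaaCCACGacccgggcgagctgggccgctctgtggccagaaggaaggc
Derl3: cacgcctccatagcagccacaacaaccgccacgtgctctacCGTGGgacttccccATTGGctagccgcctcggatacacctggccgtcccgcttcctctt
Syvn1: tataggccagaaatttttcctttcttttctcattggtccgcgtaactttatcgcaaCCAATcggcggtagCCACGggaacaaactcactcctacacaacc
In Derl3 the match lies on the opposite strand, so the capitals read as its reverse complement. These letters say nothing about which factor acted in the tissue.

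**Figure D3:**
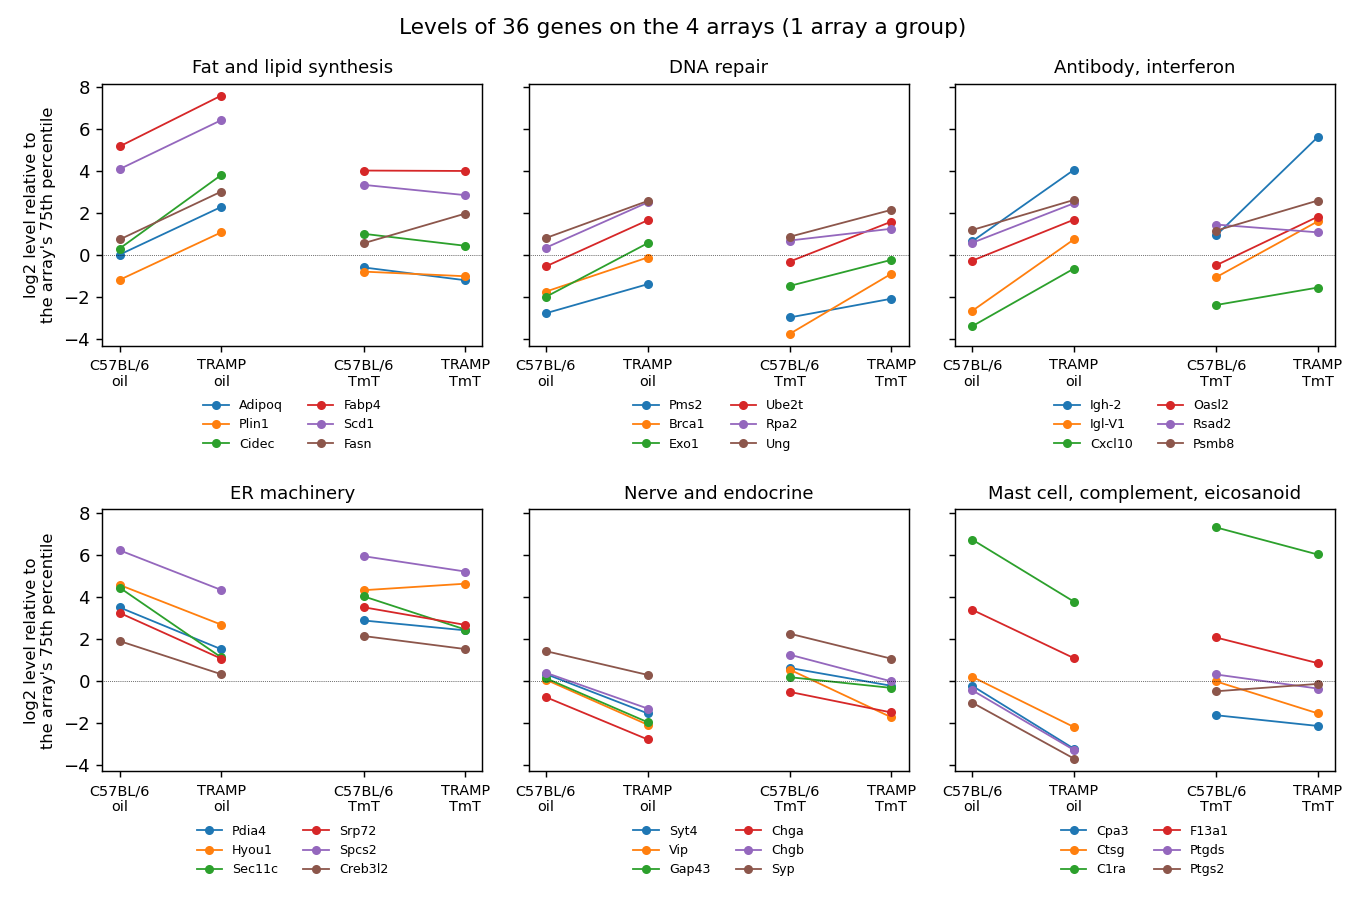
Log2 levels of 36 genes on the 4 arrays, relative to each array's 75th percentile, in 6 panels, with a line joining C57BL/6 to TRAMP within the oil pair and within the TmT pair. Fat genes such as Adipoq climb from C57BL/6 to TRAMP after oil and not after TmT, while antibody genes such as Igh-2 do so in both pairs; 1 array stands for each group.

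Nerve and neuroendocrine genes were lower in TRAMP. Of 35 measured genes of neurons and autonomic ganglia, 17 were lower and 1 higher (median -0.99). Vip, a neuropeptide of parasympathetic fibres, stood at 0.05 in C57BL/6 and -2.09 in TRAMP after oil and at 0.53 and -1.74 after TmT. Gap43, a growth cone protein, differed by -2.10 ± 0.23 and the vesicle protein Syt4 by -1.88 ± 0.21. The catecholamine enzymes Dbh and Th differed by -1.03 ± 0.22 and -0.89 ± 0.11. The 4 neuron markers, Dbh, Th, Prph and Uchl1, were above background on both oil arrays and summed to less in TRAMP, at 0.69 times the 75th percentile, than in C57BL/6. After TmT the median of the class was -0.51, with 5 of 35 lower.

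Neuroendocrine genes had 8 of 15 members lower and 1 higher (median -1.13). Relative to all genes the median was -1.06, and -0.41 with normexp. Chga, the granule protein chromogranin A, stood at -0.78 and -2.79, a difference of -2.01 ± 0.22, and Chgb at 0.38 and -1.32, a difference of -1.70 ± 0.07. Scg5, a chaperone of prohormone convertase, differed by -2.02 ± 0.26 and the vesicle protein Syp by -1.13 ± 0.20. The exception was Tph1, which starts serotonin synthesis, at -0.31 and 1.03, a difference of 1.34 that was 0.01 with the mean over all probes. Chga, Chgb and Syp were lower after TmT too, by -0.98, -1.28 and -1.19. Schwann cell and myelin genes had a smaller median of -0.45 over 25 members, with 2 lower.

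Supporting tissue was lower in TRAMP after oil, and much of this was not seen after TmT. Small proteoglycans and matricellular proteins had 9 of 33 members lower, 0 higher and a median of -0.64. Dcn, the collagen-binding proteoglycan decorin, stood at 5.52 in C57BL/6 and 3.16 in TRAMP, a difference of -2.36 ± 0.20, and Lum differed by -0.74 ± 0.20. Spon2 differed by -1.82 ± 0.22, the matricellular protein Postn by -1.51 ± 0.20 and Sparc by -1.43 ± 0.20. After TmT, Sparc stood at 4.37 and 4.68, so the sign turned, while Dcn stayed lower at 5.28 and 4.54. Fibroblast genes had 8 of 32 lower and a median of -0.58, led by the hyaluronan synthase Has1 at -2.46 ± 0.30 and Ly6c1 at -1.89 ± 0.21, with the lipocalin Apod at -1.50 ± 0.20, Igfbp5 at -1.48 ± 0.20 and the receptor Pdgfra at -0.79 ± 0.07. After TmT the fibroblast median was 0.21.

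Endothelial genes had 9 of 34 members lower, 0 higher and a median of -0.57. The transcription factor Erg stood at 0.50 and -1.06, a difference of -1.56 ± 0.21, and the junction protein Cdh5 at 1.11 and -0.23, a difference of -1.34 ± 0.21. Clec14a differed by -1.48 ± 0.23 and the phosphatase Ptprb by -1.32 ± 0.17, but the general marker Pecam1 by only -0.14 ± 0.07 and the VEGF receptor Kdr by -0.95 ± 0.07. After TmT the endothelial median was 0.31. Skeletal muscle genes had 7 of 28 lower, 0 higher and a median of -0.74, among them the light chain Mylpf at -2.61 ± 0.20, the slow troponin Tnnt1 at -1.70 ± 0.16, Actn2 at -1.25 ± 0.21, Tnnt3 at -1.17 ± 0.20, the actin Acta1 at -1.07 ± 0.20 and the creatine kinase Ckm at -1.05 ± 0.23. Smooth muscle had a median of -0.35 over 30 members, and its myosin Myh11 stood at 5.71 on both oil arrays. The 4 smooth muscle markers summed to 160 times the 75th percentile in C57BL/6 and 106 times in TRAMP, the 3 endothelial markers to 3.60 and 1.92 times, and the 9 prostate epithelial markers to 1247 and 559 times. The part that the tissue makeup of each sample has in these classes was not tested.

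Lists of innate cells and plasma cascades had lower medians after oil, by amounts that depend on the background treatment. Neutrophil and mast cell genes had 6 of 16 members lower and 1 higher (median -0.81). That median was -0.74 relative to all genes, and -0.15 with normexp. The leading genes were mast cell proteases: Cpa3 stood at -0.24 in C57BL/6 and -3.23 in TRAMP, a difference of -2.99 ± 0.25, Mcpt4 differed by -1.74 ± 0.21 and Cma1 by -1.63 ± 0.22. Ctsg, a protease of mast cells and neutrophils, differed by -2.39 ± 0.21, and S100a9, a neutrophil protein, was not above background on the TRAMP oil array. After TmT, Mcpt4 stood at -0.88 and -0.66 and Cma1 at -1.34 and -1.15, so these were level in the second pair, while Ctsg stayed lower by -1.51. Macrophage genes had a median of -0.40 over 47 members with 8 lower, led by Retnla, a mark of alternatively activated macrophages, at 4.21 and 1.20.

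Complement and coagulation had 9 of 39 genes lower and 3 higher (median -0.72). The median was -0.65 relative to all genes, and -0.18 with normexp. C1ra, a protease of the first complement component, stood at 6.72 and 3.77, a difference of -2.95 ± 0.20, and C1s1 at 2.72 and 0.22, a difference of -2.50 ± 0.20. The fibrin crosslinker F13a1 differed by -2.30 ± 0.16. The complement factor Cfd (adipsin), made by fat cells, was higher at 2.67 ± 0.20. The central component C3 differed by 0.11 ± 0.06 and C4b by -0.73 ± 0.21, so the lower values were not spread over the whole cascade.

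Enzymes of prostaglandin and lipoxygenase metabolism were lower in TRAMP, with 10 of 25 members lower, 1 higher and a median of -0.45. Ptgds, which makes prostaglandin D, stood at -0.45 in C57BL/6 and -3.29 in TRAMP, a difference of -2.84 ± 0.28. The inducible cyclooxygenase Ptgs2 stood at -1.04 and -3.70, a difference of -2.66 ± 0.17, but at -0.50 and -0.15 after TmT. The constitutive cyclooxygenase Ptgs1 differed by -1.74 ± 0.21 and the lipoxygenase Alox12 by -1.44 ± 0.20. Upstream, the cytosolic phospholipase Pla2g4a, which frees arachidonic acid, differed by -1.40 ± 0.20, as did Pla2g12a at -1.40 ± 0.20, within a phospholipase A2 family of median -0.01 with 1 of 9 higher and 2 lower. Both cyclooxygenases were therefore past 2-fold lower after oil and less than 2-fold apart after TmT, where Ptgs1 differed by -0.49.

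The lists of duct genes and of bladder lining genes had lower medians after oil as well, but the defining markers of the bladder lining were under 2-fold different in the main setting. Vas deferens and epididymal genes had 8 of 19 measured members lower, 0 higher and a median of -0.56, while 20 others on the array were above background on neither oil array. The aldose reductase Akr1b7 stood at 4.78 in C57BL/6 and 1.03 in TRAMP after oil, and at 6.05 and 5.23 after TmT. The sperm-coating protein Crisp1 stood at 2.20 and -0.28 after oil and at 2.84 and 2.93 after TmT. The beta-defensins Defb1 and Defb13 differed by -2.69 ± 0.17 and -2.47 ± 0.27. The TRAMP oil array held the lowest value of Akr1b7 and Crisp1 among the 4 arrays. Urothelial genes had 4 of 10 lower and a median of -0.66, led by the stem cell antigen Psca at 3.62 and 0.74 and the signal Shh at 1.11 and -0.58, with Bmp4 at -1.43 ± 0.07 and Gata3 at -1.01 ± 0.20. The uroplakins that define urothelium were under 2-fold different: Upk1a differed by -0.89 ± 0.16, Upk1b by 0.30 ± 0.20, Upk2 by -0.42 ± 0.23 and Upk3a by -0.09 ± 0.22. Under the other processing settings, described at the end, Upk1a ran from -2.28 to -0.82, so its place under 2-fold depends on the processing. Upk1b, Upk2 and Upk3a stayed under 2-fold there. In the main setting these 4 bladder markers had 0 lower and a median of -0.26, so none of the 4 lower genes of the list was a uroplakin. After TmT, Psca was higher in TRAMP at 2.36 and 3.70.

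Mucin-type glycosylation split, with 5 of 33 genes higher, 5 lower and a median of -0.53. Agr2, a disulfide isomerase for mucins, stood at 5.22 and 2.72 after oil and at 4.93 and 2.46 after TmT. The mucin-like Prol1 differed by -1.80 ± 0.20 and the sialyltransferase St3gal4 by -1.60 ± 0.21. Galnt3 differed by 2.20 ± 0.20 but by -0.04 with normexp correction and -0.01 without multiplicative detrending, so its direction depends on the processing. Secretoglobins, small secreted carrier proteins, had 2 of 7 higher and 2 lower, with Scgb2b27 at 2.31 ± 0.20 and Scgb2b24 at -1.41 ± 0.23. Proteins with a WAP domain, which include protease inhibitors, had 3 of 10 higher and 1 lower: Wfdc12 stood at -0.46 and 1.52 and Wfdc3 at 4.19 and 0.36, and both kept their direction after TmT. Gasdermins, which form membrane pores, had 2 of 7 lower with a median of -0.71, Gsdma at 2.99 and -1.85 and Gsdmc2 at 0.27 and -1.32. Gsdma stayed lower after TmT at 2.70 and -0.04.

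Smaller families met the same limits with mixed members. Their counts stand beside 7.73% higher and 7.86% lower over all measured genes. Kallikreins, serine proteases of glandular secretions, had 7 of 18 higher, 0 lower and a median of 0.51, with Klk1b24 at -1.24 and 2.60 after oil and at -1.56 and 1.46 after TmT, and Klk9 at 1.38 ± 0.20. Cytochrome P450 genes had 10 of 51 higher and 8 lower with a median of -0.32, ranging from Cyp2e1, the ethanol-inducible form, at 3.21 ± 0.22 to Cyp2j13 at -2.23 ± 0.20. UDP-glucuronosyltransferases, which conjugate steroids and drugs, had 3 of 9 lower and a median of -0.59, with Ugt1a6b at -1.29 ± 0.20. Their median was -0.53 relative to all genes, and -0.03 with normexp. Aldo-keto reductases had 2 of 12 higher, Akr1c12 at 1.96 ± 0.20 and Akr1c19 at 1.70 ± 0.20, and 3 lower. Aquaporins had 2 of 9 higher and 1 lower, the glycerol channel Aqp3 at -2.20 ± 0.17, and carbonic anhydrases had 3 of 11 higher and 1 lower, Car4 at 2.26 ± 0.29 and Car2 at -1.45 ± 0.20. Chloride channels had 2 of 17 higher and 5 lower, from Clca1 at -3.94 ± 0.21 to Ano9 at 1.79 ± 0.23.

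Apolipoproteins had 4 of 15 higher and 4 lower, from Apol9b at 2.27 ± 0.20 to Apod at -1.50 ± 0.20, and galectins had 2 of 8 higher and 1 lower, Lgals12, an adipocyte galectin, at 1.93 ± 0.36 and Lgals3 at -1.07 ± 0.20. S100 proteins had 1 of 11 lower, which is 9.1% and near the 7.86% of all measured genes, and a median of -0.59. Major urinary proteins had 1 of 5 lower and a median of -0.70. Cystatins and stefins had 1 of 9 lower and a median of -0.72, which was -0.65 relative to all genes, and -0.19 with normexp. Dyneins had 6 of 26 higher and 3 lower, with Dnahc7a at 2.64 ± 0.28. Alpha-defensins had 2 of 6 lower and a median of -0.81, which does not hold when the filter changes, since it lay 0.02 and 0.05 above all genes with no filter and with a filter on all 4 arrays, and at -0.07 relative to them with normexp. Several of these families hold near-identical copies, so the signal of single members is uncertain.

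Imprinted genes, expressed from 1 parental copy, had 7 of 28 members lower, 3 higher and a median of -0.39. Phlda2, a growth restrainer, stood at -0.40 in C57BL/6 and -2.44 in TRAMP, a difference of -2.04 ± 0.22, and at 0.18 and -1.61 after TmT. The noncoding RNA H19 differed by -1.69 ± 0.21, its neighbour Igf2 by -0.36 ± 0.27 and the thyroid hormone deiodinase Dio3 by 1.63 ± 0.27. In the insulin-like growth factor axis, 6 of 27 members were lower and 3 higher (median -0.15). Its binding proteins Igfbp5 and Igfbp4 differed by -1.48 ± 0.20 and -1.32 ± 0.21, Pappa2, a protease that cleaves such binding proteins, by -1.50 ± 0.24, and the growth factor Igf1 by -1.06 ± 0.20. The insulin receptor Insr was higher at 1.17 ± 0.20. Androgen response genes as a list had a median of -0.08 over 41 members, close to all genes, with Fkbp5 at 1.84 ± 0.20 and Tmprss2 at -2.19 ± 0.20.

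Neighbouring genes that differed together were sought as runs of at least 4 adjacent measured genes, all at least 2-fold different in 1 direction, by probe position on mouse build mm9. There were 8 such runs. Unnamed transcripts, clones and predicted genes counted as genes, and the Erbb4, metallothionein, Klk1b, antibody and Chn2 runs below hold some. A run can therefore read 1 gene more than once. On chromosome 6 at 124473052 to 124575730, C1ra, C1s1, C1rb and C1s2 were all lower, from -4.59 to -2.50 after oil, and their median after TmT was -1.46. These complement protease genes are tandem copies in the mouse, so a probe may read more than 1 of them. On chromosome 7, 2 runs of the Klk1b kallikreins were higher, with medians of 1.09 and 2.54. On chromosome 8 at 96697349 to 96704070, a run with Mt1 and Mt2, the zinc-binding metallothioneins, was lower, and Mt1 stood at 4.59 and 2.45 after oil and at 5.56 and 3.70 after TmT. On chromosome 12, 2 runs of 4 and 10 features in the antibody heavy chain region were higher. On chromosome 1 at 68393142 to 69079377, Erbb4, a receptor of the EGF receptor family, and 4 unnamed transcripts were higher (median 2.84); Erbb4 stood at -4.70 and -1.94. The last run, with Chn2 on chromosome 6, was lower after oil with a median of -1.43 and stood at 0.06 after TmT.

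Olfactory receptors as a family lay at the background, with 18 of 268 higher, which is 6.7%, and 7 lower. A group on chromosome 16, between 19487305 and 19625194 on mm9, stood apart from this in both pairs. Olfr170 stood at -0.76 in C57BL/6 and 4.04 in TRAMP after oil and at -0.98 and 2.25 after TmT. Olfr166 stood at -3.34 and 0.46 after oil and at -3.44 and -0.88 after TmT. Olfr167 and Olfr171 were not above background on either C57BL/6 array and were at least 261-fold and 109-fold higher in TRAMP after oil. These 4 genes were among the largest differences over all genes. Their probes may share sequence.

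Over all named genes outside the cell cycle and secretory lists, the highest difference was that of Scgb2b20, a secretoglobin, at -3.84 and 2.24, or 6.09 ± 0.26. It stood at 0.21 and 0.55 after TmT, so the C57BL/6 oil array held the value far from the other 3. The same holds for Tex19.1, a germline gene, at -4.50 and -0.52 after oil and -0.44 and -1.21 after TmT. Treh, the trehalose-splitting enzyme, stood at -1.48 and 2.71 after oil and at -0.25 and 1.85 after TmT. Vsig1, a junctional adhesion protein, stood at -3.36 and 0.20 after oil and at -4.03 and 0.21 after TmT, and Fignl1, an ATPase of recombination repair, differed by 3.37 ± 0.22 and 2.47 in the same order. Lrrc31 differed by 3.87 ± 0.22. The serpin Serpinb11 differed by 3.46 ± 0.21 after oil and by -0.77 after TmT. Treh, Vsig1, Fignl1 and Lrrc31 were thus higher in TRAMP in both pairs, while Scgb2b20, Tex19.1 and Serpinb11 were past 2-fold higher in the first alone. Bounds higher in TRAMP also included the odorant-binding protein gene Obp2a at 121-fold or more, and the motor gene Kifc5b at least 11.2-fold.

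The lowest was Ms4a5, a member of the CD20 membrane protein family, at 4.56 in C57BL/6 and -2.28 in TRAMP, a difference of -6.85 ± 0.21, and at 4.29 and -0.26 after TmT. Pramel25, of the PRAME-like family, stood at 4.82 and -0.17 after oil and at 5.55 and 2.14 after TmT. The galactosidase-like Glb1l3 differed by -4.03 ± 0.31 after oil and -3.28 after TmT. The inflammasome relative Nlrp10 stood at 4.57 and 0.71 after oil and at 3.84 and 2.02 after TmT, and the orphan receptor Gpr37l1 differed by -3.47 ± 0.21 and -1.65. All 5 were lower in TRAMP in both pairs. Clca1 stood at 3.13 and -0.81 after oil but at 2.11 and 2.04 after TmT, and the deubiquitinase Usp12 at 2.02 and -1.80 against 1.55 and 1.07. For Hspa1a, the inducible Hsp70, the C57BL/6 oil array held the highest of the 4 values, at 4.25 against 0.50 in TRAMP and 2.00 and 1.76 after TmT. Bounds lower in TRAMP were Prr9 at least 61.8-fold, Lct (lactase) at least 25.9-fold, G6pc2 at least 24-fold, Ptk7 at least 15-fold, Yeats2 at least 14.5-fold and Ces2e at least 12.8-fold. Of these, Ptk7 and Ces2e were level after TmT, at -0.37 and -0.46 and at -2.22 and -2.40.

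Several large classes hardly differed. Mitochondrial ribosomal proteins had a median of -0.08 over 76 members with 1 higher and 0 lower. Splicing factors had a median of 0.05 over 38, with 2 higher and 2 lower, and integrins 0 of 22 past 2-fold with a median of -0.21. Zinc finger genes had a median of 0.14 over 303 members, with 5.3% higher and 3.6% lower. T and NK cell genes had 0 of 27 higher and 1 lower.

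Set beside the pair after TmT, the oil pair shared part of its differences. In the second pair 1456 of 17219 measured genes were higher in TRAMP, which is 8.46%, and 1046 were lower, which is 6.07%. Over the 16929 genes measured in both pairs, 483 of the 1236 genes higher after oil were also higher after TmT, which is 39.1% of them and 33.9% of those higher after TmT, against 8.4% of all. Of the 1348 genes lower after oil, 282 were lower again, which is 20.9% of them and 27.5% of those lower after TmT, against 6.1% of all. The opposite 2-fold difference was found for 32 and 46. Antibody, interferon, recombination and ER folding classes had medians on the same side in both pairs. Fat, endothelial, fibroblast, urothelial, duct and mast cell classes had medians near or beyond 0 on the other side after TmT. The difference between the pairs has no test with 1 array a group.

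**Figure D4:**
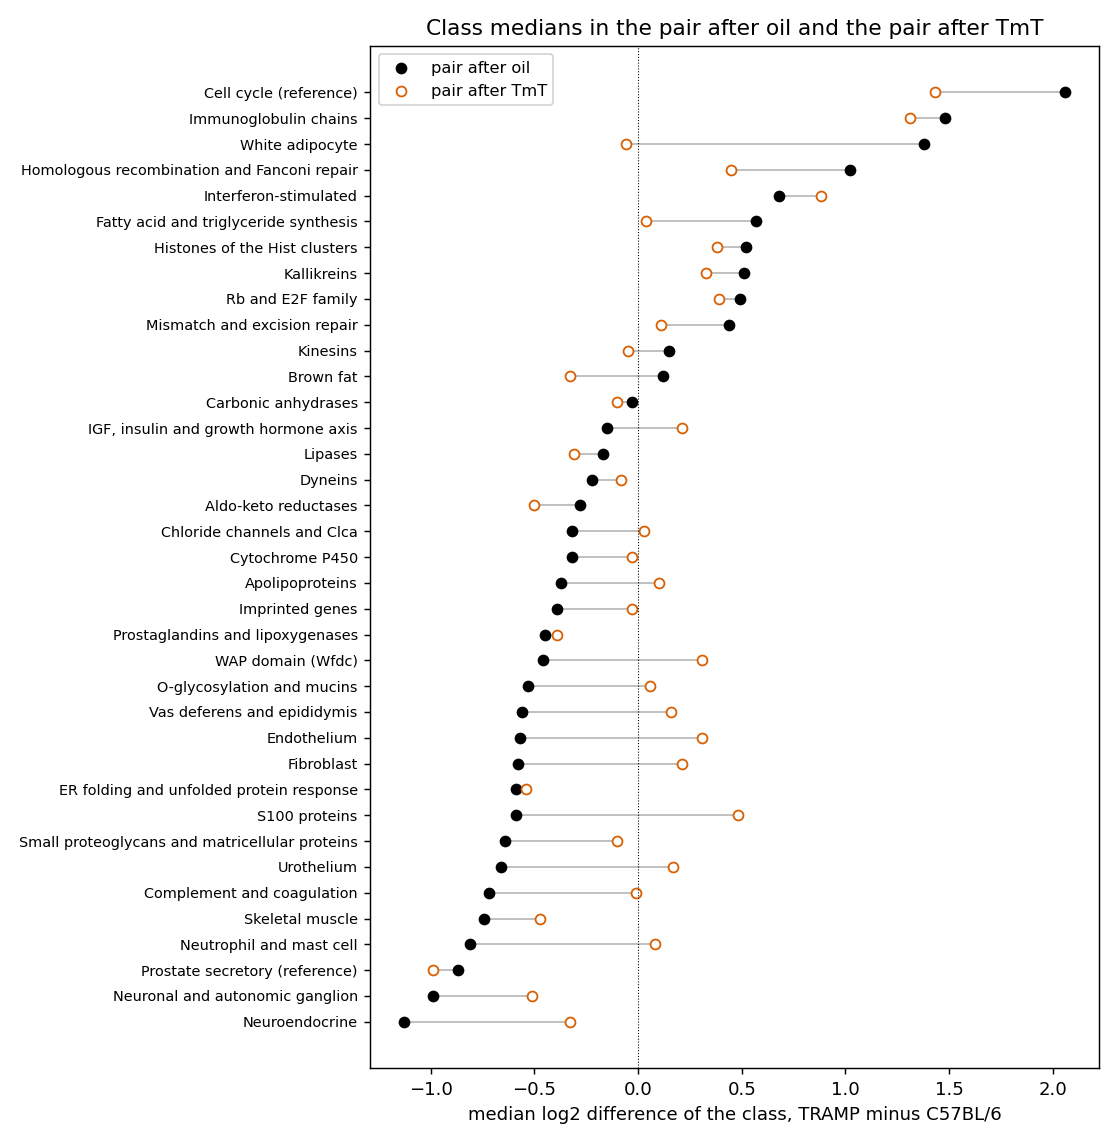
Median log2 difference, TRAMP minus C57BL/6, of each described class with at least 10 measured genes, in the pair after oil (filled) and the pair after TmT (open). The white adipocyte class moves from 1.38 to -0.06 between the pairs, whereas ER folding stays at -0.59 and -0.54.

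The precision of these values differs with brightness and probe. In the dimmest of 4 equal groups of genes 9.8% were higher and 8.2% lower, and in the brightest 4.3% and 6.1%. Where a gene that differed had another measured probe, all other probes had the same direction in 67.0% of 349 genes that were higher and 66.7% of 420 that were lower, and all passed 2-fold in 115 and 63 genes.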

How the data were processed

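Prostate RNA was labelled with Cy3 and hybridised to 4 Agilent mouse arrays of 1 colour, 1 for each group. Per the file headers, the intensity of each spot was extracted with Agilent Feature Extraction 10.2.1.3, which subtracts background and corrects the trend across the array, and probe positions are on mouse build mm9. The deposited table of values for the same arrays equals that processed intensity for all 45018 features, on a linear scale with no centring. Control spots and outlier-marked spots were left out, spots of a probe were averaged, and the log2 of each array's 75th percentile was subtracted. A gene took its brightest probe over the 4 arrays and was measured where that probe was well above background on both arrays of a pair. Where a gene was above background on 1 array, the fold is a bound, set against the lowest signal well above background on that array, or the dim probe's own where brighter. Of 41174 probes, 24836 matched RefSeq (GRCm38) by accession and 4058 of these received a newer symbol.

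A gene counted as different at 2-fold. With n = 1 array a group no test was made and no array could be left out, and the scanner's error, which assumes 10% multiplicative error, covers the spot alone. Of 80 curated classes and 90 symbol families, those were described whose median lay at least 0.5 from that of all genes, or in which 30% of at least 5 measured members differed. Over all measured genes 15.6% differed in either direction. A few other classes are given as values. Up to 4 members with the largest differences, and index genes, were named in each class, with the 12 highest and 12 lowest genes and the 6 largest bounds in each direction over all genes. A few further genes, such as E2f7, E2f8 and S100a9, were named after their values were seen. The members, lists and rules were chosen with earlier results of these data known, and a few family patterns were corrected after their members were seen, because they had taken in unrelated genes. Promoters are RefSeq sequences of GRCm38, matched by symbol. The normexp correction used limma 3.58.1 in R 4.3.3. The other alternatives and the rest used Python 3.11.15 with pandas 2.3.3 and numpy 2.4.6. The calculation was tested on simulated data. A few genes are not reported here.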

Additional observations from a re-analysis of the deposited data

Results flagged for a closer look

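In 9 of the 48 described classes the median difference lay at least 0.5 from that of all genes after oil and on the other side of it after TmT, where all genes had medians of -0.07 and 0.01. The difference between the pairs was not tested, since each group has 1 array. Endothelial genes had a median of -0.57 after oil and 0.31 after TmT, over 34 genes measured in each pair, and fibroblast genes -0.58 over 32 genes and 0.21 over 33. S100 proteins had a median of -0.59 over 11 genes after oil and 0.48 over 12 genes after TmT. UDP-glucuronosyltransferases had a median of -0.59 over 9 genes after oil and 0.31 over 8 genes after TmT. Urothelial genes had -0.66 and 0.17 over 10 genes in each pair, and genes of the vas deferens and epididymis -0.56 over 19 genes and 0.16 over 17. White adipocyte genes went the other way, from 1.38 over 26 genes after oil to -0.06 over 22 after TmT. After TmT the medians lay within 0.1 of all genes for neutrophil and mast cell genes, at -0.81 over 16 genes and 0.08 over 13, for gasdermins, at -0.71 and 0.02 over 7 genes in each pair, and for the white adipocyte genes.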

How the results depend on the processing

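No paired analysis was possible because each group has 1 array and the groups share only the number 1; for the same reason no array could be left out. The counts of 1465 genes higher and 1490 lower stayed within 1.5 times under quantile normalization and median centring. So they did with the percentile over probes above background on all 4 arrays and without multiplicative detrending. The mean over probes, kept outlier spots and the filter on all 4 arrays also kept them in that range. The deposited table equals the processed intensity, so it only repeats the main setting. Similar counts did not mean the same genes. Without detrending 1266 of the higher and 1195 of the lower genes were shared with the main setting, and with the mean over probes 1237 and 1136. Of 229 named differences, 75 moved by more than 0.2 without detrending and 62 with the mean over probes. With normexp background correction the counts fell to 446 and 674, with 4 runs of neighbours in place of 8. At least 2-fold different were still 120 of 192 named genes. With no background filter they were 2734 and 3017, with 18 runs, and at 3-fold 546 and 445. Of the genes that differed, 49.6% were higher in TRAMP, 39.8% with normexp and 55.3% with quantile normalization, and the median of all genes moved from -0.07 to 0.05 with normexp. Of 48 class medians relative to all genes, 42 kept their direction with normexp, but 24 moved by more than 0.2, among them immunoglobulin chains from 1.55 to 0.44, Schlafens from 1.33 to 0.40, neuroendocrine genes from -1.06 to -0.41 and alpha-defensins from -0.74 to -0.07. The direction turned with normexp for Creb3l2 at 0.54, Galnt3 at -0.04 and Ugt2b38 at 0.02, and without detrending for Galnt3 at -0.01. Ercc4, Insr and Alox12 kept their direction, but their smallest differences over the settings were 0.19, 0.32 and -0.25. The alpha-defensin median, relative to all genes, turned to 0.02 with no filter and 0.05 with the filter on all 4 arrays. The cause was not tested.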
